A study of Homo sapiens with 6 samples.

Results

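The genes described here are 10 of the 46287 rows of a read count table: the integrin subunits ITGA2, ITGA5, ITGAV, ITGB1, ITGB3, ITGB5, ITGB6 and ITGB8, and the integrin adaptors ILK and FERMT1. They were taken by name, as the subunits that bind collagen, fibronectin or latent TGF-beta outside the hemidesmosome, with an adaptor pseudokinase and a kindlin. RNA was sequenced from HaCat cells, human epidermal keratinocytes that became immortal without a transgene and grow as a line, in 2 groups of 3 libraries. The control cells are wild type. The other cells are labelled as homozygous for a CRISPR/Cas9 knockout of SDR42E1, a short-chain dehydrogenase/reductase gene that the study links to vitamin D. Both groups were grown alike, in high-glucose medium with serum, and harvested before confluence with EDTA. EDTA takes up the divalent cations that integrins need to bind their ligands. The labels speak of RNA pools and call the replicates biological. They do not say whether the knockout is 1 clone or whether libraries came from separate cultures, so p-values measure only the spread between these libraries, which may be technical.

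Integrins are receptors made of an alpha and a beta subunit that span the cell membrane. Outside the cell they hold matrix proteins, and inside it the beta tail binds talin and kindlin, which switch the receptor on and tie it to actin. ITGB1 pairs with ITGA2 to bind collagen and with ITGA5 to bind fibronectin. ITGAV pairs with ITGB1, ITGB3, ITGB5, ITGB6 or ITGB8, and its pairs with ITGB6 and ITGB8 release active TGF-beta from its latent complex. In skin, resting keratinocytes are held by laminin-binding integrins of the hemidesmosome, while the fibronectin receptors and the ITGB6 pair are known for their rise at wound edges.

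Promoter sequences are given for members that moved in different directions, with the letters of the AP-1 motif TGANTCA and of the GC box GGGCGG in capitals. They come from RefSeq on GRCh38.p14, read 5′ to 3′ on the gene's strand. RefSeq windows, 250 bases before to 50 after a start, matched 8 of the 10 members by symbol, with 12 windows in all, since some genes have several starts. The ITGA5 line shows the 27 bases around its AP-1 match, at chr12:54419256-54419282 on the minus strand. The other lines stop before the first annotated start of the gene: ITGA2 at chr5:52989102-52989325 on the plus strand, ITGAV at chr2:186589806-186590055 on the plus strand and ITGB6 at chr2:160200314-160200522 on the minus strand.
ITGA5: ctccccgcgtTGAGTCAttcgcctctg
ITGA2: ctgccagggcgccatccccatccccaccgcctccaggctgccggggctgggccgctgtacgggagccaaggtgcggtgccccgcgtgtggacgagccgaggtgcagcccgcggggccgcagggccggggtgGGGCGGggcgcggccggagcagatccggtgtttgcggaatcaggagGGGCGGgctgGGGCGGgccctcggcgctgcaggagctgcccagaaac
ITGAV: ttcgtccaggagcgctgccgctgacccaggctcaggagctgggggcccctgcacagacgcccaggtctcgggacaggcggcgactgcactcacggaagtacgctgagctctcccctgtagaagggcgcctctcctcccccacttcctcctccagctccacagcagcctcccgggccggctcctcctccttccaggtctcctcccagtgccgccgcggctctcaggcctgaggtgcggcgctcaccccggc
ITGB6: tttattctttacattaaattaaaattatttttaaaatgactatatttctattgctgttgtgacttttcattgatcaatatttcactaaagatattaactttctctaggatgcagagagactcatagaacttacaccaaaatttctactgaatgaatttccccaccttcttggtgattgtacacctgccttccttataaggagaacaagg

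The ITGB6 stretch is rich in A and T, with a GC content of 30.1%, against 77.2% in the ITGA2 stretch and 70.8% in the ITGAV stretch. The ITGA2 stretch held 3 GC boxes, and those of ITGAV and ITGB6 held 0. Both strands were searched. A GC box lay in 8 of the members' 12 windows and in 45% of all 35116 windows of that length. These boxes do not follow the direction of change: ILK and ITGB5, which did not pass, had them in every window. A window of ITGB1, which rose, had 0. The AP-1 motif lay in 1 of the 12, that of ITGA5, where it starts 6 bases before the RefSeq start, and in 7.71% of all windows. The TEAD motif GGAATG was searched too and lay in 2 of the 12, those of ITGA5 and ITGB1, and in 14% of all windows. A match is a run of letters and not a measured binding site.

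The library checks bear on every value below. Totals ran from 11504473 to 16928201 counts. SDR42E1 was at 46.8, 47.6 and 48.8 CPM (counts scaled to a common, TMM-adjusted library size) in control cells and at 23.2, 20.1 and 20.7 CPM in knockout cells, so it was lower in each knockout library but still present. All 12 keratinocyte markers passed the filter on low counts, with a summed level of 9868 to 10530 CPM in control and 11167 to 11581 CPM in knockout libraries. They moved both ways: in the test given below 5 rose, 2 fell and 5 did not pass, against 24.6% higher and 25.8% lower of all genes. KRT6A went from 1120 ± 60.2 to 2680 ± 78.5 CPM and KRT5 from 2698 ± 124 to 1709 ± 67.5 CPM (SD, n = 3 each). Markers of other cell types were near 0. The summed level of 9 fibroblast markers was 4.97 to 6.65 CPM in control and 1.21 to 2.28 CPM in knockout libraries, with DCN and PDGFRA at 0 in every library. For 6 endothelial markers it was 3.65 to 4.28 and 1.92 to 2.81 CPM, and for 6 melanocyte markers 3.31 to 3.57 and 1.57 to 2.89 CPM, with TYR at 0. For 6 immune markers it was 5.68 to 8.68 and 8.31 to 9.94 CPM, most of it CD68, with CD3E at 0. In such bulk libraries a change in the number of cells that make an RNA and a change in the RNA per cell cannot be told apart.

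Of the 10 members, 9 passed the filter on low counts and were tested. In the knockout 5 rose, ITGA5, ITGB8, ITGA2, FERMT1 and ITGB1, while ITGAV and ITGB6 fell slightly and ITGB5 and ILK did not pass. The test is edgeR's quasi-likelihood F test over all 12293 tested genes, two-sided, with Benjamini-Hochberg adjusted p below 0.05 as the threshold. In the same test 50.4% of all genes passed, 24.6% higher and 25.8% lower, so passing is common in these cells. The median log2 fold change of the 9 members was 0.31, against -0.004 for all tested genes. The 3 values of each group did not overlap in 6 of the 9 members, and in 56.5% of all genes. A change of at least 2-fold was seen in 1 member, ITGA5, and in 7.14% of all genes.

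**Figure D1:**
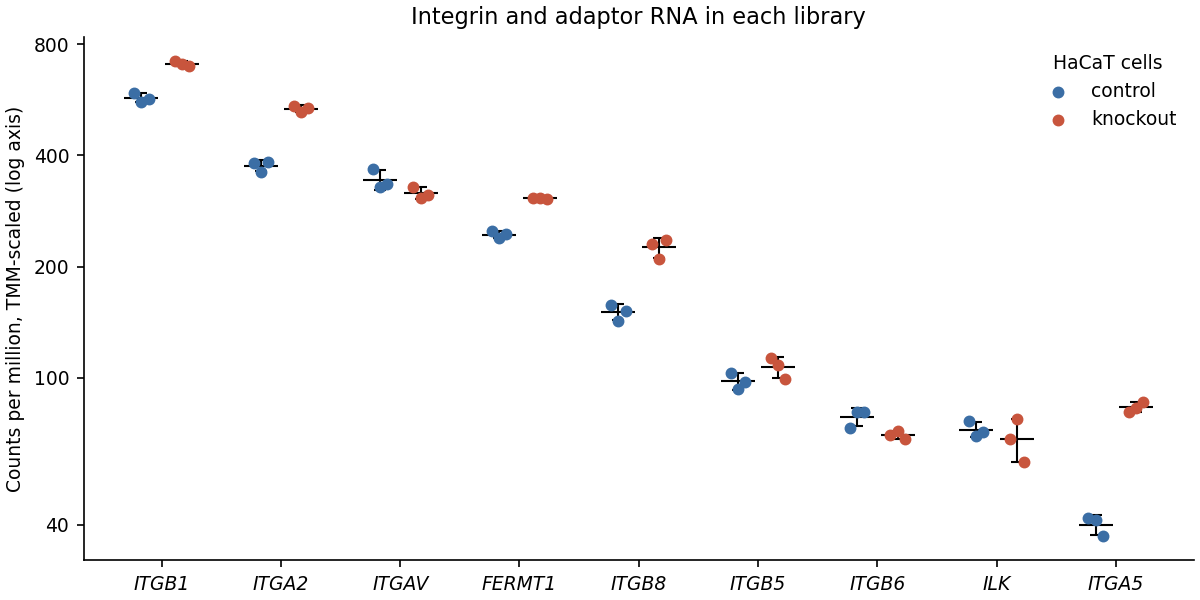
Level of each tested member in each library, in TMM-scaled CPM on a log axis; points are libraries, bars the mean ± SD of 3. Control and knockout points lie apart for ITGB1, ITGA2, FERMT1, ITGB8, ITGB6 and ITGA5, and overlap for ITGAV, ITGB5 and ILK.

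The largest change among the members was in ITGA5, the alpha subunit of the classical fibronectin receptor (chromosome 12, 54395261 to 54419460, minus strand, GENCODE 29 on GRCh38). Control libraries held 41.7, 41.3 and 37.3 CPM and knockout libraries 80.9, 83.1 and 86.1 CPM. Every knockout library lay above every control library. This is a 2.08-fold rise, 1.05 on the log2 scale (SE 0.07, adjusted p = 6.68e-16 in edgeR's test), and its size was above that of 93.3% of tested genes. Counts of ITGA5 ran from 459 to 1094 per library.

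ITGA2, the alpha subunit of the collagen receptor of keratinocytes, also rose (chromosome 5, 52989326 to 53094779, plus strand). Its levels were 382, 361 and 384 CPM in control and 545, 524 and 537 CPM in knockout cells. The rise was 0.51 on the log2 scale (SE 0.05, adjusted p = 8.28e-12 in edgeR's test). ITGB1, the beta subunit shared by the collagen and fibronectin receptors, rose by a smaller step (chromosome 10, 32900319 to 33005792, minus strand). It went from 590, 559 and 570 CPM to 723, 707 and 698 CPM, a log2 fold change of 0.31 (SE 0.04, adjusted p = 4.53e-07). ITGB1 was the most abundant member in both groups.

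ITGAV, the alpha subunit of the receptors that release TGF-beta, differed little (chromosome 2, 186590065 to 186680901, plus strand). Control libraries held 368, 329 and 334 CPM and knockout libraries 330, 306 and 313 CPM, so the groups overlap. The log2 fold change of -0.12 (SE 0.05) passed narrowly (adjusted p = 0.0428 in edgeR's test). It no longer passed under 6 of the 13 alternatives: DESeq2 (adjusted p = 0.0683), RLE scaling (0.0559), and leaving out control replicate 1 (0.300), control replicate 3 (0.0524), knockout replicate 2 (0.171) or knockout replicate 3 (0.0688). The value without control replicate 1, the highest of its group, was -0.07.

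Among the beta partners of ITGAV, ITGB8 rose and ITGB6 fell narrowly. ITGB8 (chromosome 7, 20330702 to 20415754, plus strand) had 158, 143 and 152 CPM in control and 231, 210 and 237 CPM in knockout cells, with no overlap. Its log2 fold change came to 0.58 (SE 0.05, adjusted p = 8.85e-12 in edgeR's test). ITGB6 is the epithelial subunit of the family (chromosome 2, 160099666 to 160200313, minus strand). It had 73.3, 80.7 and 81.0 CPM in control and 69.9, 71.9 and 68.6 CPM in knockout cells. Its log2 fold change of -0.16 (SE 0.06, adjusted p = 0.0313) no longer passed under 5 of the 13 alternatives: DESeq2 (adjusted p = 0.0679), and leaving out control replicate 2 (0.142), control replicate 3 (0.130), knockout replicate 1 (0.0723) or knockout replicate 3 (0.0824). An overlapping gene on the same strand, AC092153.1, covers 20.6% of its annotated exon length, so the counting could have split its reads.

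ITGB5, the beta subunit of a vitronectin receptor (chromosome 3, 124761948 to 124901418, minus strand), did not pass. It had 103, 93.3 and 97.3 CPM in control and 113, 108 and 99.2 CPM in knockout cells, with overlap, a log2 fold change of 0.13 (SE 0.06, adjusted p = 0.0701 in edgeR's test). Without knockout replicate 3, the lowest of its group, the value was 0.18 (adjusted p = 0.0121), and without control replicate 1 it was 0.17 (adjusted p = 0.0303).

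ITGB3, the vitronectin receptor subunit of platelets and endothelium, was all but undetected. It had 1 count in knockout replicate 2 and 0 in the other 5 libraries, where 3 counts would amount to 0.174 to 0.262 CPM. It was not tested and no fold is given. An annotated gene on the same strand, AC068234.1, covers 51.6% of its exon length (chromosome 17, 47253846 to 47311816, plus strand), and how reads of shared exons were counted is unknown here.

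Of the adaptors, FERMT1 rose and ILK did not pass. FERMT1, which encodes kindlin-1, a protein that binds beta tails and activates integrins in keratinocytes, lies on chromosome 20 (6074845 to 6123544, minus strand). Its levels were 249, 239 and 245 CPM in control and 307, 307 and 305 CPM in knockout cells, with a log2 fold change of 0.33 (SE 0.05, adjusted p = 2.47e-07 in edgeR's test). Its relative FERMT2, encoding kindlin-2, fell from 21.7 ± 2.22 to 15.7 ± 0.656 CPM (SD, n = 3 each), a log2 fold change of -0.48 (SE 0.11).

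ILK, the pseudokinase that ties beta tails to the parvins, did not pass (chromosome 11, 6603708 to 6610874, plus strand). Its levels were 76.3, 69.8 and 71.4 CPM in control and 68.4, 77.3 and 59.4 CPM in knockout cells. Its log2 fold change came to -0.08 (SE 0.07, adjusted p = 0.385 in edgeR's test), and the knockout libraries lay on both sides of the controls. Without knockout replicate 3, the lowest, the value was 0.013 (adjusted p = 0.893), and without knockout replicate 2, the highest, it was -0.18 (adjusted p = 0.0485). TAF10 on the opposite strand overlaps 68.1% of the annotated exon length of ILK. TAF10 itself rose by 0.32 on the log2 scale. The kit marks strand, but whether the counting used it is unknown here, so the ILK counts may hold reads of TAF10.

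**Figure D2:**
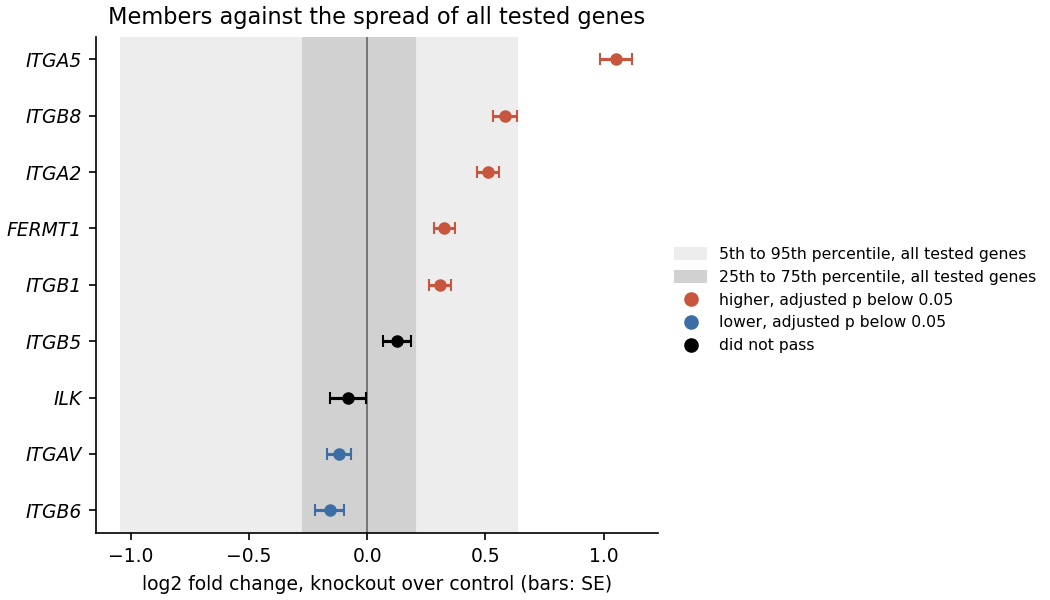
Log2 fold change of each tested member, knockout over control, with its SE as a bar, over the spread of all tested genes in grey. ITGA5, at 1.05, lies above the 95th percentile of all genes (0.63), and ITGAV, ITGB6, ILK and ITGB5 lie between the 25th (-0.27) and 75th (0.20).

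To compare genes with each other, levels were divided by the length of each gene's annotated exons, giving CPM per kilobase. In control cells ITGB1 led with 95.3 ± 2.59 CPM per kilobase (SD, n = 3). ITGA2, FERMT1 and ITGAV followed at 47.5 ± 1.56, 45.6 ± 0.959 and 41.9 ± 2.58, and each overlapped its neighbour in that order. ILK was at 20.8 ± 0.981, and ITGB6 and ITGB5, which overlapped each other, at 16.7 ± 0.935 and 15.2 ± 0.780. ITGB8 at 9.95 ± 0.481 and ITGA5 at 5.29 ± 0.321 were the lowest of the 9 tested members.

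In knockout cells the 4 highest members did not overlap. ITGB1 was at 118 ± 2.05 CPM per kilobase, ITGA2 at 67.7 ± 1.32, FERMT1 at 57.2 ± 0.273 and ITGAV at 38.5 ± 1.45. ITGB5, ITGB6 and ITGB8 followed ILK, which was at 19.6 ± 2.57, at 16.6 ± 1.09, 15.0 ± 0.360 and 14.9 ± 0.923, and ILK overlapped ITGB5 as ITGB6 overlapped ITGB8. ITGA5 was at 11.0 ± 0.340, the lowest by this length. These levels depend on the length taken: by the longest annotated transcript the control level of ITGB8, 17.2 CPM per kilobase, is just above that of ITGB6, 16.8, and ITGAV, at 48.9, is just above ITGA2, at 47.7. By that length the knockout level of ITGA5, 16.7 CPM per kilobase, is above that of ITGB6, 15.0, and that of ITGB8, 25.8, is above that of ITGB5, 24.4.

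Shares within each library compare the member subunits with each other, without the library scaling. Of the summed counts per kilobase of ITGA2, ITGA5 and ITGAV, which can all pair with ITGB1, ITGAV held 45.5%, 43.9% and 43.2% in control and 33.5%, 32.6% and 32.5% in knockout libraries, a difference of -11.4 percentage points. ITGA2 held 49.0%, 50.1% and 51.6% in control and 57.6%, 57.9% and 57.8% in knockout libraries. ITGA5 held 5.58%, 5.97% and 5.22%, against 8.92%, 9.57% and 9.67%. The control and knockout shares of each of the 3 genes did not overlap. In an exact two-sided permutation test each gave p = 0.1 (adjusted p = 0.1 over the 3), the smallest that 3 against 3 libraries allow. The shares of 1 library sum to 100%, so they are not independent. A share depends on the other genes in the sum: the log2 fold change was -0.12 for ITGAV and 0.51 for ITGA2. Alpha subunits outside the members are not in the sum. One of these, ITGA6, was at 170 ± 5.17 CPM per kilobase in control and 242 ± 5.78 in knockout cells (SD, n = 3 each).

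Among the beta partners of ITGAV other than ITGB1, the share of ITGB8 was 24.7%, 23.0% and 23.6% in control and 31.9%, 30.1% and 34.2% in knockout libraries. ITGB6 held 37.2%, 41.9% and 40.8% in control and 31.3%, 33.4% and 32.1% in knockout libraries. The groups did not overlap for either gene, with differences of 8.32 and -7.70 percentage points. ITGB5 held 36.3% ± 1.58 and 35.7% ± 1.70 (SD, n = 3 each), a difference of -0.63 percentage points that is within the spread between libraries. By the exact permutation test p was 0.1 for ITGB8 and for ITGB6 (adjusted p = 0.2 over the 4 shares) and 0.6 for ITGB5. By the length of the longest transcript the ITGB5 difference was -2.27 percentage points (exact permutation p = 0.1), so its size depends on the length taken. The order of the shares depends on it too. By that length the control levels of ITGB5, ITGB8 and ITGB6 were 22.4, 17.2 and 16.8 CPM per kilobase, which puts ITGB6 below the others. The differences for ITGB8 and ITGB6 were then 8.99 and -6.73 percentage points. ITGB3 held at most 0.038% in any library.

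**Figure D3:**
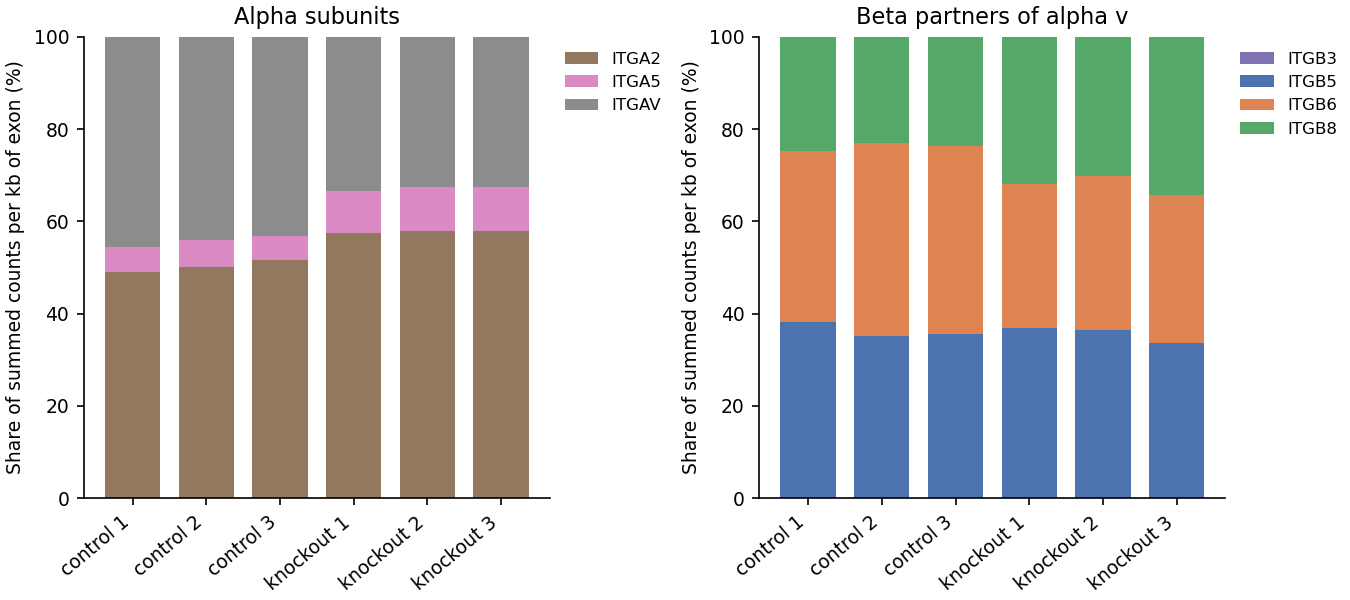
Share of each gene in the summed counts per kilobase of exon, in percent, for each of the 6 libraries: the alpha subunits on the left, the beta partners of ITGAV on the right. The mean share of ITGAV is 44.2% in control and 32.9% in knockout libraries, that of ITGB8 23.8% and 32.1%, and that of ITGB6 39.9% and 32.2%.

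The laminin-binding subunits rose too, and none of the 3 overlapped between groups. Among all tested genes 56.5% did not overlap and 24.6% rose. ITGA6 had a log2 fold change of 0.51, ITGA3 of 0.65 and ITGB4 of 0.76 (SE 0.04 to 0.05). Of 16 other integrin subunits and related genes, 6 passed the filter, of which 2 rose, 2 fell and 2 did not pass the test, with a median of 0.22 against -0.004 over all tested genes. By the same test 24.6% of all genes rose and 25.8% fell. ITGA4, a fibronectin and VCAM1 receptor subunit best known from leukocytes, fell from 187, 190 and 194 CPM to 85.3, 87.0 and 92.3 CPM (log2 -1.11, SE 0.05). ITGA1, a collagen receptor subunit, rose from 13.3 ± 0.374 to 28.6 ± 1.23 CPM (log2 1.10, SE 0.10). ITGBL1, a secreted integrin-like protein, rose by 0.48 on the log2 scale. ITGAE had a value of -0.33 (adjusted p = 0.0251 in edgeR's test), which no longer passed in DESeq2 (adjusted p = 0.0675), without control replicate 3 (0.228) or without knockout replicate 1 (0.0833).

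Ligands of these receptors moved both ways. Of 23 matrix genes, 18 were tested, 4 rose, 11 fell and 3 did not pass, with a median log2 fold change of -0.76 against -0.004 over all tested genes. Over all tested genes 24.6% rose and 25.8% fell. FN1, encoding fibronectin, the ligand of the ITGA5 receptor, rose from 183, 170 and 155 CPM to 328, 360 and 337 CPM (log2 1.01, SE 0.05). THBS1, encoding thrombospondin-1, a matrix protein also known to activate TGF-beta, rose by 1.25 on the log2 scale (SE 0.13), from 1068 ± 169 to 2532 ± 154 CPM. CCN1, a matricellular integrin ligand, rose by 0.54. In edgeR's test the adjusted p was 0.00148 for THBS1, against 9.91e-17 for FN1 and 5.50e-06 for CCN1.

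The falls included matrix genes of different kinds. EDIL3, an RGD protein that binds ITGAV receptors, went from 104 ± 6.67 to 13.5 ± 2.19 CPM (log2 -2.94, SE 0.09). TNC, encoding tenascin-C, a matrix protein of wounds, fell from 130, 129 and 117 CPM to 39.9, 48.8 and 49.2 CPM (log2 -1.45, SE 0.07). The basement membrane collagen genes COL4A1 and COL4A2 fell by 1.04 and 0.66 on the log2 scale, and NID1, encoding the linker protein nidogen-1, fell by 2.02. COL3A1, also on the fibroblast marker list, was low in control cells and lower in knockout cells, 2.36 ± 0.817 against 0.117 ± 0.202 CPM. The part of the low marker levels in the changes of collagen genes was not tested.

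**Figure D4:**
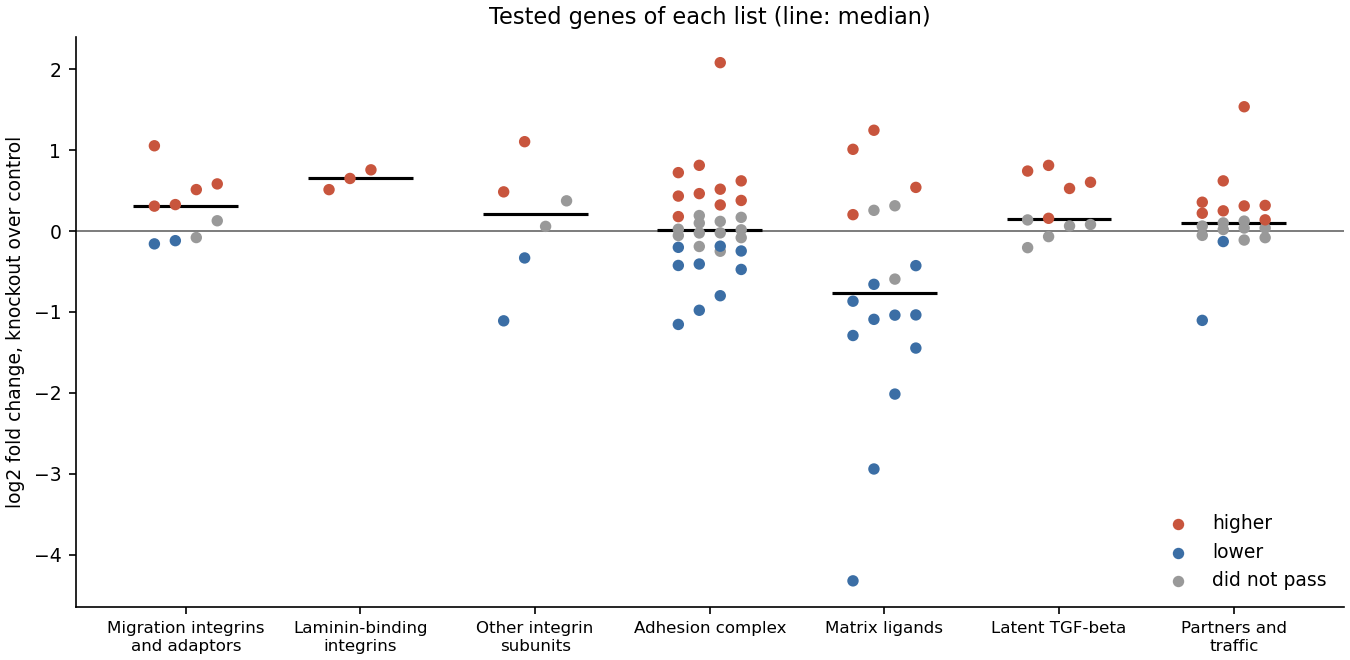
Log2 fold change, knockout over control, of the tested genes of each list; each point is a gene, coloured by the call in edgeR's test, and the line is the median. Matrix ligands spread from -4.33 to 1.25 with a median of -0.76, while all 3 laminin-binding integrins lie above 0.

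In the list of latent TGF-beta genes 10 of 12 were tested, of which 5 rose, 0 fell and 5 did not pass in edgeR's test, with a median of 0.15 against -0.004 over all tested genes. Of all tested genes 50.4% passed, 24.6% higher and 25.8% lower, so the share that passed is near that of all genes. The count of falls was 0 at an unadjusted p below 0.05 as well, and 0 in DESeq2 by either p. TGFBR1, the type I receptor, went from 97.6, 97.8 and 98.6 CPM to 178, 161 and 178 CPM (log2 0.81, SE 0.05). LTBP3, which holds latent TGF-beta in the matrix, rose by 0.74 and the ligand gene TGFB2 by 0.60. TGFB1 (log2 0.53, adjusted p = 0.0229 in edgeR's test) and the type II receptor gene TGFBR2 (log2 0.16, adjusted p = 0.0366) passed too. Neither passed in DESeq2 (adjusted p = 0.0523 and 0.0604). TGFB1 also failed without control replicate 1 (0.129), knockout replicate 1 (0.0635) or knockout replicate 2 (0.0550). TGFBR2 failed with upper-quartile scaling (0.0915) and without control replicate 1 (0.147), control replicate 2 (0.129), knockout replicate 2 (0.0980) or knockout replicate 3 (0.0524).

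Genes of the adhesion complex, which links integrin tails to actin, were split. Of 35, 31 were tested, 10 rose, 9 fell and 12 did not pass, with a median of 0.01 against -0.004 over all tested genes. The shares over all tested genes were 24.6% higher and 25.8% lower. The actin crosslinkers ACTN1 and FLNA rose by 0.72 and 0.43 on the log2 scale and the scaffold gene PXN, encoding paxillin, by 0.62. TNS3, encoding tensin-3, which binds beta tails, fell from 169, 167 and 170 CPM to 72.5, 77.0 and 77.8 CPM (log2 -1.16, SE 0.05). KANK2, which slows talin-linked adhesions, fell by 0.80 and the scaffold gene NEDD9 by 0.98. Talin-1 (TLN1) had a log2 fold change of 0.02, focal adhesion kinase (PTK2) one of -0.02 and vinculin (VCL) one of -0.06, and none of these 3 passed. They were chosen after their values were seen.

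Of 21 genes for membrane partners and trafficking of integrins, 19 were tested, 8 rose, 2 fell and 9 did not pass (median 0.10 against -0.004 over all tested genes). Among all tested genes 50.4% passed, 24.6% higher and 25.8% lower. PLAUR, the urokinase receptor that binds integrins from the side, rose from 23.5, 21.4 and 23.0 CPM to 64.6, 76.0 and 55.1 CPM (log2 1.54, SE 0.10). CAV1, encoding caveolin-1, rose by 0.62, and the tetraspanin genes CD151 and CD81 by 0.32 and 0.36. SLC3A2, the CD98 heavy chain, an amino acid transporter subunit that binds beta tails, fell from 649, 647 and 642 CPM to 297, 304 and 300 CPM (log2 -1.10, SE 0.05).

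Each member was also set beside its 40 nearest tested genes whose mean log2 CPM was 2 or more. For ITGB1, which rose, the median over its neighbours was -0.24 on the log2 scale, with 36 of 40 below 0. The neighbours of FERMT1 had a median of -0.11 and those of ITGA5 one of -0.01. The neighbours of ITGB8 had a median of 0.26, of the same sign as the gene's own 0.58, and 9 of the 40 were below 0. The part of that regional shift in the ITGB8 value was not tested. ITGAV and ITGB6 on chromosome 2 had neighbours with medians of 0.07 and 0.02. For SDR42E1, the targeted gene on chromosome 16, the neighbours had a median of -0.53, with 38 of 40 below 0, beside its own -1.16 (SE 0.08). Over all tested genes of that level, the median was -0.18 on chromosome 10 (ITGB1), 0.11 on chromosome 7 (ITGB8) and -0.12 on chromosome 16.

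**Figure D5:**
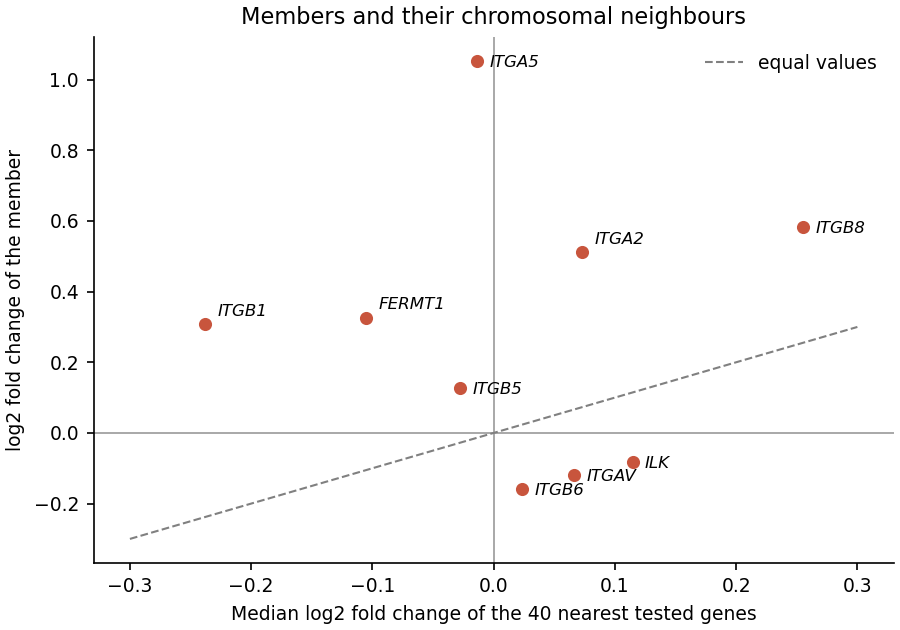
Log2 fold change of each tested member (vertical axis) against the median of the 40 nearest tested genes on its chromosome (horizontal axis); the dashed line marks equal values. ITGB1 lies at -0.24 and 0.31, ITGB8 at 0.26 and 0.58.

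ITGA5 had the smallest adjusted p among the members. The genes whose log2 CPM followed it most closely over the 6 libraries were CRIM1, TNFRSF21 and AMMECR1L, with Pearson correlations of 0.999 each. These 6 points fall into the 2 groups, so the correlations describe the difference between groups: CRIM1 had a log2 fold change of 0.67, TNFRSF21 of 0.64 and AMMECR1L of 0.25.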

How the data were processed

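The authors deposited raw counts of reads per gene, in 1 table with a column for each library. Reads were placed on GRCh38, per the submitters' processing notes, and libraries were stranded total RNA, per the labels' protocols. Aligner, counting tool and strand setting: not given in the sources used here. Columns were assigned to samples by their names, 6 of 6. Within groups, the 6 pairs of libraries differed beyond sampling noise, with chi-square per degree of freedom of 2.65 to 4.49, so each was kept as a replicate.

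The test was edgeR 4.0.16 (R 4.3.3) on the 12293 genes kept by filterByExpr (minimum count 10, minimum total 15), with TMM scaling and the robust quasi-likelihood F test (prior count 0.125), without a block. Adjusted p-values of genes are from it unless another tool is named. SE was taken as |log2 fold change| divided by the root of F. The test was also run on simulated counts, with few genes changed and the same spread set for all genes. In these data 50.4% of genes passed, so that run does not measure how the test behaves here. Shares were compared by exact permutation of libraries. Lengths, positions and overlaps came from GENCODE 29. Alternatives were DESeq2 1.42.0, limma-voom (limma 3.58.1), RLE and upper-quartile scaling, no filter, a filter asking for 1 CPM in at least 3 libraries, a block on the replicate number, and leaving out each library. For shares and levels the length of the longest transcript replaced that of all exons.

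The members and lists were chosen with earlier results of these data known, so no list was tested as a set. Named were SDR42E1, all members, the laminin-binding subunits, up to 8 genes of each list with the smallest adjusted p, and the 3 genes most like the member with the smallest adjusted p. THBS1, FERMT2, TAF10, TLN1, PTK2 and VCL fall outside this rule and were chosen after their values were seen.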

Additional observations from a re-analysis of the deposited data

How the results depend on the processing

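ITGA5, ITGA2, ITGB8, ITGB1 and FERMT1 kept their direction and passed under all 13 alternatives. The 2 falls, ITGAV and ITGB6, were less firm: 1 member fell under RLE scaling and 0 in DESeq2 (2 at an unadjusted p below 0.05), and leaving out 1 library gave 0 to 2 members lower. ITGAV and ITGB6 did not both pass in any of those 6 fits. The count of 2, without knockout replicate 2, is ITGB6 and ILK. The log2 fold change of ILK was -0.18 without knockout replicate 2 (adjusted p = 0.0485) and 0.013 when knockout replicate 3 was left out (0.893). The difference in the ITGB5 share among partners of ITGAV, -0.63 percentage points, ran from -1.20 to 0.35 when 1 library was left out, and was -2.27 by the longest transcript length (exact permutation p = 0.1). In DESeq2, 1 of the other integrin subunits fell and 3 latent TGF-beta genes rose. Leaving out 1 library gave 1 to 3 falls among other integrin subunits, 3 to 5 rises among latent TGF-beta genes, and 1 or 2 falls among membrane partners (1 without control replicate 2, control replicate 3, knockout replicate 2 or knockout replicate 3). ITGA11, TGFBR3 and LTBP1, which did not pass, changed sign when 1 library was left out, with ranges of -0.10 to 0.26, -0.47 to 0.036 and -0.12 to 0.27. The causes were not tested. The deviations of libraries with the same number correlated at 0.02, -0.09 and -0.01, and those with different numbers at -0.11 to 0.13. Pairing by number was thus not seen in these values, and a shared batch was not tested. With the replicate block, 3155 genes rose and 3270 fell, against 3022 and 3175 without it, and ITGB5 passed (log2 0.13, adjusted p = 0.0387). Over all genes, upper-quartile scaling gave 2671 rises and 3478 falls. Each tested member had at least 459 counts in every library.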
